A study of Mus musculus with 14 samples.

Results

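Pancreatic islets of Pdx-1 haploinsufficient mice were compared with control islets on 9 microarrays of a set of 14. The comparison takes every array titled Pdx-1+/- (4) and every array titled control (5), over all 19938 genes with a single symbol. Per the labels, the Pdx-1+/- mice carry Pdx-1-tTA, a driver allele that places a tetracycline-controlled transactivator under Pdx-1 and leaves the animal haploinsufficient for that gene. The labels name the control mice only as control, without a genotype. All mice were untreated, 11 weeks old and of a mixed C57BL/6 and NMRI background (1:1). The other 5 arrays come from diabetic mice that carry the same driver and use it to express constitutively active IKK2 (IKK2-CA). They entered the estimate of the spread and are otherwise given only as side values. The contrast is therefore read as the driver allele alone, without the IKK2 transgene, although the genotype of the controls is not given. It cannot tell the missing Pdx-1 copy apart from the transactivator protein. It is not stated whether each array is a separate mouse or whether islets were pooled, so p-values measure the spread between these samples, which may be technical.

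Pdx1 is a homeodomain transcription factor that is needed early for the pancreas to form and later for β-cells to keep their identity. In adult islets it is made mainly by β-cells and by δ-cells, where it binds regulatory DNA of insulin, of the glucose transporter Slc2a2, of Mafa and of many other β-cell genes. Mice and people with 1 working copy develop normal-looking islets but are prone to impaired glucose tolerance.

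The islet label held on all 9 arrays. On the deposited log2 scale, on which a difference of 1 is a factor of 2, Ins2 (insulin) read 12.60 to 12.68 and Gcg (glucagon of α-cells) 12.88 to 13.36. Acinar enzyme genes were as bright: Cpa1 (carboxypeptidase A1) read 13.62 to 13.71 on the 9 arrays and Ctrb1 (chymotrypsinogen) 13.64 to 13.72, close to each array's highest value of 13.64 to 13.73. Signals this close to the ceiling can understate a difference, which limits what the hormone genes can show. Array medians were 6.45 to 6.55, and pairs of arrays within a group correlated at 0.986 to 0.993 across genes in controls and at 0.968 to 0.993 in Pdx-1+/- islets. Xist, which marks female cells, read at most 3.99 on the 9 arrays, and the Y-linked gene Eif2s3y at least 7.63.

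Among the arrays, 2 stood apart through genes of intestinal epithelium. Sis, a brush-border disaccharidase, read 9.16 on Pdx-1+/- array 4 and 6.05 on control array 3, against 3.29 to 3.45 on the other 7. Fabp2, the intestinal fatty acid binding protein, read 9.09 and 6.58 on these arrays and 3.59 to 3.85 elsewhere. The count of genes that fell, Pdx1, several genes close to the threshold and many list medians are therefore also given without both arrays; in that fit every gene that passed was among the 19 described next.

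Against control, 19 genes fell in Pdx-1+/- islets and 0 rose at an adjusted p under 0.05 (limma with Benjamini-Hochberg adjustment over all genes). The 19 are 0.0953% of the genes tested, and the genes that rose are 0%. At an unadjusted p under 0.05 there were 940 genes, 695 lower and 245 higher. Array weights in limma gave 66 lower and 7 higher genes, and the other alternative settings 9 to 48 lower and 0 to 2 higher. An adjusted p under 0.1 was met by 31 lower genes and 1 higher gene, Tspan8. The genes that fell were 1.65- to 4.65-fold lower, 14 of them at least 2-fold, while the median over all genes was -0.0049 on the log2 scale. For each of the 19, every Pdx-1+/- array lay below every control array, with a gap of 0.198 to 1.17 log2 units. Arrays that did not overlap were found for 279 lower genes, 1.4% of those tested, and for 96 higher genes, 0.481%. In whole islets, fewer cells of a type and less RNA per cell cannot be told apart. Averaged over the 19 genes, control arrays 1 to 5 read 7.91, 7.48, 8.23, 8.22 and 8.22, and Pdx-1+/- arrays 1 to 4 read 6.64, 6.51, 6.69 and 6.35. Control array 2 was the lowest control for all 19 genes, and Pdx-1+/- array 4 was the lowest of its group for 13.

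**Figure D1:**
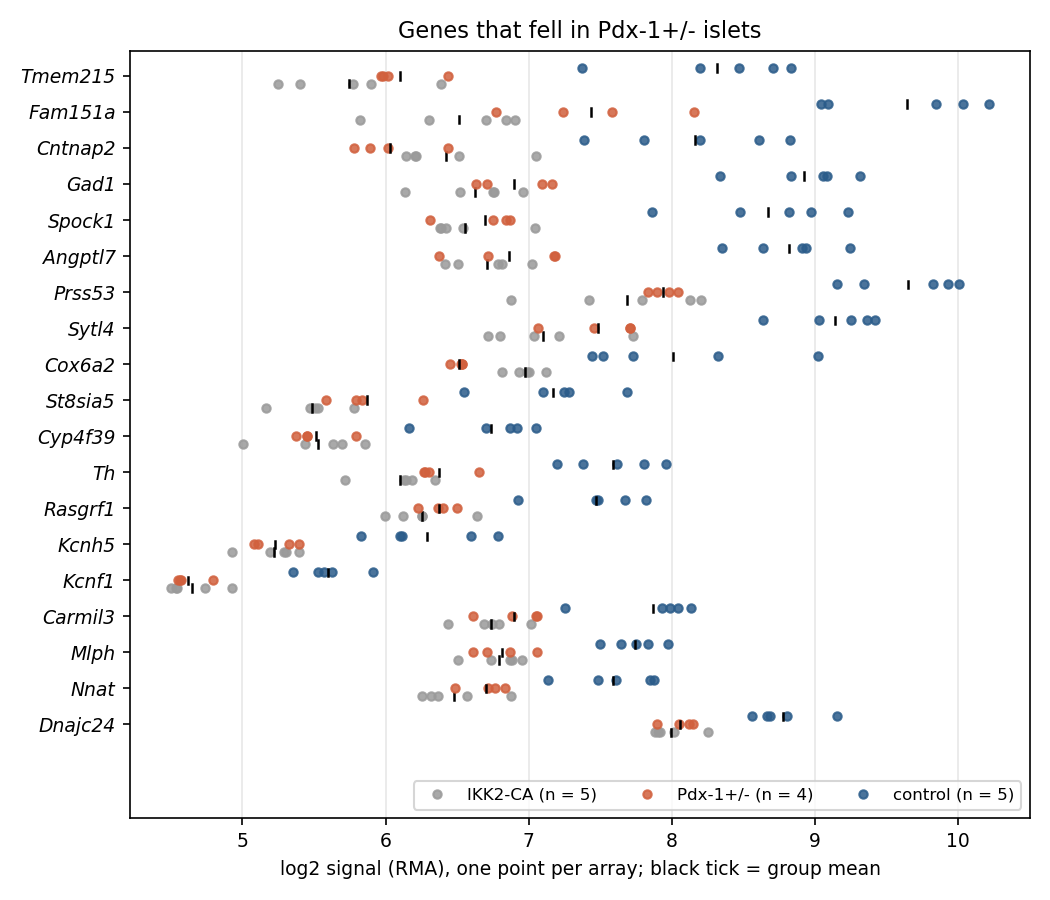
The log2 signal of the 19 genes that fell (x axis) is shown with 1 point per array for the 5 control (blue), 4 Pdx-1+/- (orange) and 5 IKK2-CA (grey) arrays, and black ticks mark group means. In each gene the orange points lie to the left of all blue points, with gaps from 0.198 (Carmil3) to 1.17 log2 units (Gad1 and Angptl7).

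Enzymes that make neurotransmitters were among the genes that fell furthest. Gad1, which makes the transmitter GABA from glutamate, read 9.06, 8.34, 9.32, 9.08 and 8.83 on the control arrays and 7.17, 6.71, 7.09 and 6.64 on the Pdx-1+/- arrays. The lowest control thus stood more than 1 log2 unit above the highest Pdx-1+/- array. The difference was -2.03 (SE 0.20, limma adjusted p = 0.000791), a 4.07-fold fall. Gad2, the other GABA-forming enzyme, read 4.11 to 4.30 in controls and 4.13 to 4.38 in Pdx-1+/- islets, with a difference of 0.01 (SE 0.08). Th, tyrosine hydroxylase, the first enzyme of catecholamine synthesis, read 7.81, 7.20, 7.38, 7.96 and 7.62 in controls and 6.27, 6.27, 6.65 and 6.30 in Pdx-1+/- islets. Its groups were separate, with Pdx-1+/- array 3 the highest of its group. Th fell 2.33-fold (log2 difference -1.22, SE 0.16, limma adjusted p = 0.00363).

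Maob, a monoamine oxidase that breaks down dopamine, read 8.69 to 9.83 in controls and 8.07 to 8.36 in Pdx-1+/- islets, which do not overlap; its difference was -1.10 (SE 0.22, limma adjusted p = 0.0882). Maob passed with array weights (-1.19, limma adjusted p = 0.0077) and without control array 2 (-1.27, limma adjusted p = 0.00797), but not without Pdx-1+/- array 4 and control array 3 (-0.92, limma adjusted p = 0.649). Ddc, which turns L-DOPA into dopamine, differed by -0.11 (SE 0.27), and Gch1, which makes the cofactor of Th, by -0.41 (SE 0.17). Of 23 measured genes of GABA, catecholamine and serotonin metabolism 2 fell, 12 were below 0 and the median was -0.0033, close to that of all genes, so the falls of Gad1 and Th were not shared by the list as a whole.

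Effectors of Rab27a, a small GTPase of secretory vesicles, gave 2 of the falls. Sytl4, or granuphilin, which docks insulin granules at the plasma membrane, read 9.03, 8.64, 9.42, 9.37 and 9.25 in controls against 7.71, 7.46, 7.71 and 7.06. All control arrays were above all Pdx-1+/- arrays. It fell 3.15-fold (log2 difference -1.66, SE 0.21, limma adjusted p = 0.00363). Mlph, melanophilin, known from the transport of pigment granules, read 7.65, 7.50, 7.75, 7.98 and 7.83 in controls and 6.71, 6.61, 7.06 and 6.87 in Pdx-1+/- islets. Its groups lay apart too, with both spreads narrow (SD 0.18, n = 5, and 0.20, n = 4). Mlph fell 1.90-fold (log2 difference -0.93, SE 0.12, limma adjusted p = 0.00363).

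The rest of the docking and exocytosis machinery, Rab27a itself included, shifted less. Among 33 measured genes Sytl4 alone passed, 26 were below 0 and the median was -0.19, or -0.054 without Pdx-1+/- array 4 and control array 3. Rims3, of the release-site scaffold, read 8.01 to 8.79 in controls and 7.35 to 7.74 in Pdx-1+/- islets (difference -0.84, SE 0.17, limma adjusted p = 0.111). Doc2b, a calcium sensor for fusion, read 6.38 to 6.65 and 5.77 to 6.29 (difference -0.53, SE 0.13, limma adjusted p = 0.248). Neither pair of ranges overlaps, and neither gene passed.

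A pair of voltage-gated potassium channel subunits fell. Kcnf1, a silent subunit that modifies other channels, read 5.57, 5.35, 5.63, 5.53 and 5.91 in controls and 4.55, 4.57, 4.56 and 4.79 in Pdx-1+/- islets. Within Pdx-1+/- islets 3 arrays were almost equal and array 4 was the highest, still below every control. Kcnf1 fell 1.97-fold (log2 difference -0.98, SE 0.12, limma adjusted p = 0.00259). Kcnh5, of the ether-a-go-go family, read 6.10, 5.83, 6.60, 6.12 and 6.79 in controls and 5.33, 5.08, 5.40 and 5.11 in Pdx-1+/- islets. The groups did not overlap, and Kcnh5 fell 2.08-fold (log2 difference -1.06, SE 0.17, limma adjusted p = 0.0233). The Kcnf1 signal lay below the array medians of 6.45 to 6.55 in both groups.

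Among 25 measured genes of the list of β-cell ion channels and excitability, which did not include Kcnf1 and Kcnh5, 0 passed in limma (8 lower and 2 higher at an unadjusted p under 0.05, and, of the members followed through all settings, Trpm5 and Atp2a2 with array weights). The list's median was -0.26, or -0.090 without Pdx-1+/- array 4 and control array 3. Trpm5, a calcium-activated cation channel, read 6.66 to 7.24 in controls and 6.15 to 6.39 in Pdx-1+/- islets (difference -0.62, SE 0.12, limma adjusted p = 0.0803). Atp2a2, a pump that loads calcium into the endoplasmic reticulum, read 11.31 to 12.05 and 10.87 to 11.18 (difference -0.73, SE 0.15, limma adjusted p = 0.111). Both passed without control array 2 (limma adjusted p = 0.0366 for Trpm5 and 0.0121 for Atp2a2) and neither without Pdx-1+/- array 4 and control array 3 (limma adjusted p = 0.398 and 0.767). The channel subunits that close on glucose metabolism moved less: Kcnj11 differed by -0.26 (SE 0.16) and its partner Abcc8 by -0.38 (SE 0.23), with overlapping arrays in both.

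Several genes of the cell surface and of secreted proteins fell at least 3-fold. Tmem215, a membrane protein of little-known role, read 8.20, 7.37, 8.71, 8.84 and 8.47 in controls and 5.98, 5.97, 6.44 and 6.02 in Pdx-1+/- islets. It had the largest fall of all genes, 4.65-fold (log2 difference -2.22, SE 0.27, limma adjusted p = 0.00363). Cntnap2, a neurexin-family adhesion protein of neurons, read 7.81, 7.38, 8.61, 8.83 and 8.20 against 6.44, 6.02, 5.89 and 5.78. Its controls spread widely (SD 0.59, n = 5) yet all exceeded the Pdx-1+/- arrays, and it fell 4.38-fold (log2 difference -2.13, SE 0.27, limma adjusted p = 0.00363).

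Fam151a read 9.09, 9.04, 10.22, 10.03 and 9.85 in controls and 7.58, 7.24, 8.16 and 6.77 in Pdx-1+/- islets. It varied more among Pdx-1+/- arrays (SD 0.58, n = 4) than the other genes that fell, and was 4.62-fold lower (log2 difference -2.21, SE 0.31, limma adjusted p = 0.00828). Spock1, or testican, a secreted proteoglycan, read 8.48, 7.86, 8.82, 8.97 and 9.23 in controls and 6.84, 6.75, 6.87 and 6.31 in Pdx-1+/- islets, a 3.94-fold fall (limma adjusted p = 0.00259). Angptl7, a secreted angiopoietin-like protein, read 8.94, 8.36, 8.64, 8.91 and 9.25 against 6.71, 7.19, 7.18 and 6.37, a 3.88-fold fall (limma adjusted p = 0.000791). For both genes the distance between the groups exceeded the range within Pdx-1+/- islets. Prss53, a serine protease, read 9.35, 9.16, 9.93, 10.01 and 9.83 against 8.04, 7.90, 7.98 and 7.83, and fell 3.28-fold (log2 difference -1.71, SE 0.24, limma adjusted p = 0.00828). Its Pdx-1+/- arrays were nearly equal (SD 0.09, n = 4). St8sia5, which adds sialic acid to gangliosides, read 6.55 to 7.69 and 5.58 to 6.26, and fell 2.47-fold (limma adjusted p = 0.0128).

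Signalling and metabolic genes made up the remainder. Rasgrf1, an exchange factor that activates Ras and is imprinted, read 7.47, 6.93, 7.82, 7.67 and 7.49 in controls and 6.40, 6.37, 6.50 and 6.23 in Pdx-1+/- islets. It fell 2.15-fold (log2 difference -1.10, SE 0.16, limma adjusted p = 0.0105), and again no arrays overlapped. Cox6a2, the form of a cytochrome oxidase subunit typical of heart and muscle, read 7.73, 7.44, 8.33, 7.52 and 9.03 against 6.45, 6.53, 6.54 and 6.54. The controls ranged widely while the Pdx-1+/- arrays were almost the same (SD 0.67, n = 5, and 0.04, n = 4). The IKK2-CA arrays, which also enter the SE, were close together too (SD 0.11, n = 5). That SE is therefore not the scatter of the controls alone. Cox6a2 fell 2.82-fold (log2 difference -1.50, SE 0.24, limma adjusted p = 0.027) and was the one gene to pass among 44 measured respiratory chain genes, of which 36 were above 0, with a median of 0.059, or -0.014 without Pdx-1+/- array 4. In the 9 fits that left out 1 array, Cox6a2 passed in 4. Its widespread counterpart Cox6a1 differed by -0.03. Cyp4f39, a fatty acid hydroxylase, fell 2.33-fold, from 6.16 to 7.05 in controls to 5.37 to 5.79 in Pdx-1+/- islets (limma adjusted p = 0.0147).

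Besides Mlph, 3 genes that fell lie outside the 15 largest falls and are named after their values were seen. Nnat, neuronatin, an imprinted membrane protein with a role in insulin secretion, read 7.48, 7.14, 7.88, 7.85 and 7.61 against 6.76, 6.83, 6.71 and 6.49 (1.86-fold, limma adjusted p = 0.0485). Carmil3, a regulator of actin capping, fell 1.96-fold (limma adjusted p = 0.0424) with control array 2 at 7.26 and the other controls at 7.93 to 8.14. Dnajc24, which helps make the modified amino acid diphthamide, fell 1.65-fold, from 8.56 to 9.15 in controls to 7.90 to 8.15 (limma adjusted p = 0.0237). Nnat and Carmil3 had the largest adjusted p-values of the 19, and each passed in 1 of the 9 fits that left out 1 array.

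The arrays behind the calls mattered for some of the 19. Without Pdx-1+/- array 4 and control array 3, 9 genes passed, all among the 19: Angptl7, Cntnap2, Gad1, Kcnf1, Mlph, Spock1, Sytl4, Th and Tmem215. The same 9 passed in every fit that left out 1 of the 9 arrays. In those single-array fits the count ranged from 9 without Pdx-1+/- array 2 to 48 without control array 2, and was 12 without Pdx-1+/- array 3 and 12 without array 4. Log2 differences of all 19 stayed below 0 in each setting in which the gene was tested. Control array 2, lowest for the 19 genes, also had the lowest control score for the list of β-cell transcription factors, -0.07 against 0.14 to 0.48 for the other controls (a score averages, over a list, how far each gene lies from its own 14-array mean). The part of this in the count was not tested.

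**Figure D2:**
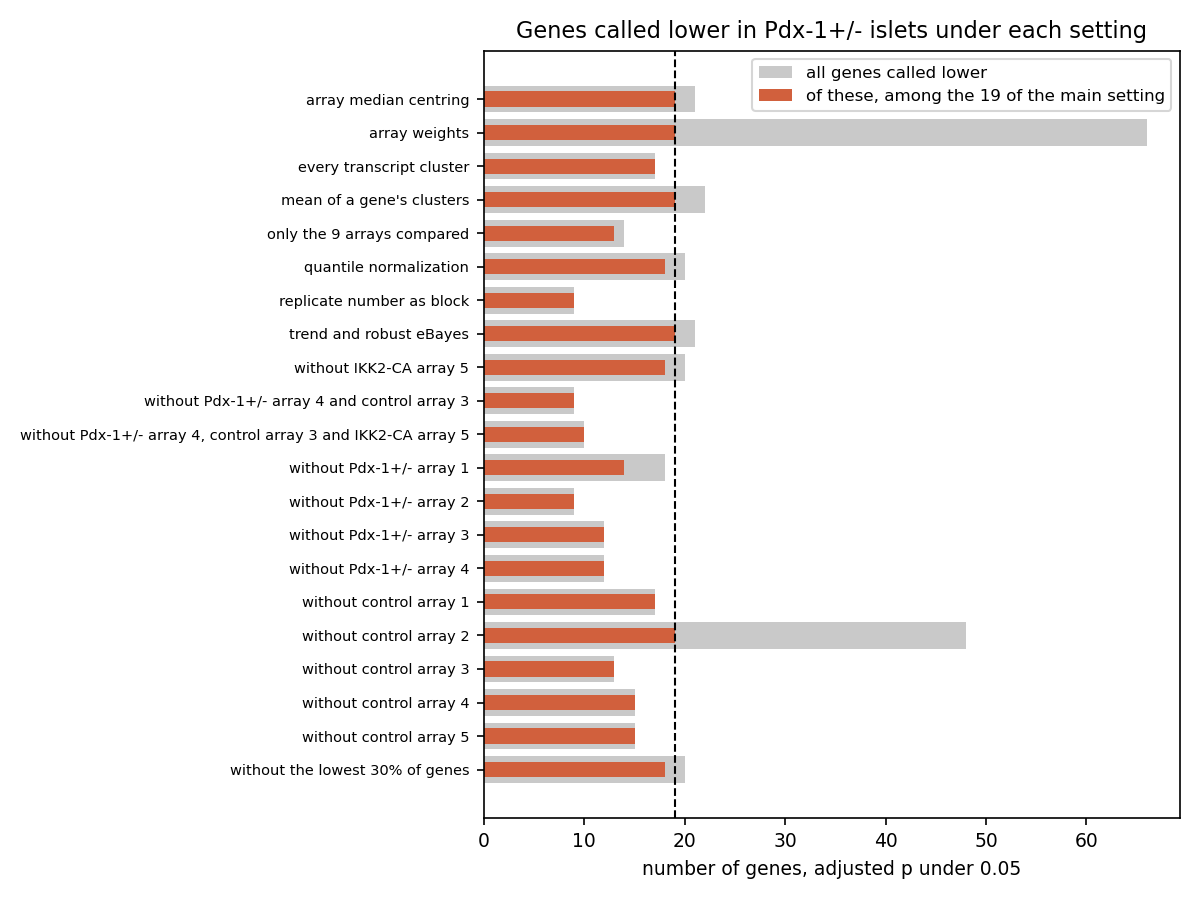
Grey bars give the number of genes lower in Pdx-1+/- islets at an adjusted p under 0.05 (x axis, genes) under each alternative setting, orange bars those among the 19, and the dashed line 19. The count ranged from 9 to 66. All 19 were called with array weights, median centring, the mean of a gene's clusters, trend and robust eBayes, and without control array 2.

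Promoter sequence was examined because 19 genes moved the same way and Pdx1 is a homeodomain protein that recognises DNA with a TAAT core. The 250 bases before each RefSeq start (build GRCm38.p6) were searched on both strands for TAATTA, a common homeodomain motif, and for CTAATG, a sequence found in an A-box of the insulin promoter. Of the 19 genes 17 had an entry, with 20 starts. Among them 3 starts (15%) held a match, Th and Kcnf1 to CTAATG and Prss53 to TAATTA, and these are shown because they are the only matches. Over all tested genes with an entry, 1716 of 19177 starts (8.95%) held either motif, 4.03% TAATTA and 5.20% CTAATG. A match is a description of the letters, not a binding site, and 3 of 20 starts is too few to compare. Capitals mark the match, 168 bases before the start in Th, 206 in Prss53 and 225 in Kcnf1, and each sequence is written 5′ to 3′ in the direction of the gene. The regions are chr7:142899996-142900245 for Th, chr7:127890971-127891220 for Prss53 and chr12:17176889-17177138 for Kcnf1, all on the minus strand.
Th: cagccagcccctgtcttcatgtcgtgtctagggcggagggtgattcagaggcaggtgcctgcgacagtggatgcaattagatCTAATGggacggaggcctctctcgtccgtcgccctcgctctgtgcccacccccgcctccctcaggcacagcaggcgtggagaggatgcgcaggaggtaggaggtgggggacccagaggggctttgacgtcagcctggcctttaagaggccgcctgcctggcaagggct
Prss53: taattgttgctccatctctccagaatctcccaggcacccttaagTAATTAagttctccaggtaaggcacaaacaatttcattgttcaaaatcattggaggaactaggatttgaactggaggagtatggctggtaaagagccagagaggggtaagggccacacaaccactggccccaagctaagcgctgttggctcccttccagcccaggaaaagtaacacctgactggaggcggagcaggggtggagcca
Kcnf1: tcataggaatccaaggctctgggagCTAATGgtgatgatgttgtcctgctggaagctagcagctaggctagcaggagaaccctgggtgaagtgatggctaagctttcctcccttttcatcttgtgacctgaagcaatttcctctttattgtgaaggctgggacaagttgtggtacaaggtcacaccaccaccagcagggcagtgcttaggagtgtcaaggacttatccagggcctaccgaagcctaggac

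Pdx1 itself read 7.98, 7.67, 8.62, 8.46 and 8.42 in controls and 7.32, 7.10, 7.27 and 6.85 in Pdx-1+/- islets. All Pdx-1+/- arrays lay below all control arrays, by 0.353 log2 units at the closest. The difference was -1.09 (SE 0.25), a ratio of 0.468, but it did not pass over all genes (limma adjusted p = 0.21). Over the single-array fits it ranged from -0.997 to -1.23, and it was -0.90 without Pdx-1+/- array 4 and control array 3. Array weights gave -1.13 and an adjusted p of 0.0121, and the alternatives without weights gave adjusted p-values from 0.0739 upward. The position of the Pdx1 probes relative to the altered allele was not analysed here, so the reading is no exact check of the genotype.

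Genes next to Pdx1 on the chromosome showed no such pattern. Of the 20 tested neighbours on each side 0 passed in limma (2 lower and 0 higher at an unadjusted p under 0.05; Tex26 with array weights) and the median was -0.026. Tex26 alone had separate arrays, at 4.51 to 4.81 in controls and 4.24 to 4.42 in Pdx-1+/- islets (difference -0.36, SE 0.09, limma adjusted p = 0.254), near the dim end of the scale.

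After the group means were removed, the genes whose 9 array values ran most like Pdx1 were Tspan13 (Pearson r 0.989), Tmco3 (0.985) and Prox1 (0.983), with the tenth, Elovl2, at 0.969. These 10 genes did not pass the test between groups, with differences from -0.38 (Fbxl2) to -0.02 (Prox1). For the 19 genes that fell, r with Pdx1 ran from 0.330 (Kcnf1) through a median of 0.854 to 0.951 (Sytl4). Without control array 2 and Pdx-1+/- array 4, the 2 farthest from the median, the median over 7 arrays was 0.606. Over these 7 arrays r ran from -0.366 (Angptl7) to 0.936 (Sytl4), and Th was also negative (-0.333). The 9 points share arrays, normalization and cell composition, and these values are descriptions.

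Transcription factors of β-cells leaned lower, but 0 of 28 measured passed in limma (7 lower and 1 higher at an unadjusted p under 0.05; of the members followed through all settings, Pdx1 with array weights), with 24 below 0 and a median of -0.26. Mafa, an activator of the insulin gene, read 7.50, 7.25, 8.16, 8.77 and 7.64 in controls and 6.73, 6.92, 6.87 and 6.94 in Pdx-1+/- islets. Its controls were widely spread and its Pdx-1+/- arrays were close together, with no overlap. It was 1.99-fold lower (log2 SE 0.25, limma adjusted p = 0.296). Arrays were also separate for Foxa2, a pioneer factor of endoderm (-0.43, SE 0.15), and Tshz1 (-0.53, SE 0.13). Nkx6-1, which keeps β-cells from other fates, differed by -0.56 (SE 0.25), Neurod1 by -0.50 (SE 0.26), Pax6 by -0.37 (SE 0.21) and Nkx2-2 by -0.29 (SE 0.21), all with overlapping arrays. The list's median was -0.13 without Pdx-1+/- array 4 and -0.057 without that array and control array 3. Pdx-1+/- array 4 had a score of -0.27 for this list, against 0.02 to 0.07 on the other Pdx-1+/- arrays.

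Genes that carry glucose into metabolism showed a few large differences within a list whose median was near 0. Of its 28 measured genes, 4 had arrays that were separate and lower, where 1.4% of all genes did. The scores of the list ran from 0.0393 to 0.3029 in controls and from -0.1030 to 0.0003 in Pdx-1+/- islets. They include those 4 genes and are not separate evidence of a shift of the list. Slc2a2, the glucose transporter GLUT2, read 10.30, 9.90, 11.28, 10.99 and 11.17 in controls and 9.37, 9.08, 9.52 and 9.23 in Pdx-1+/- islets. The groups did not overlap and the ratio of means was 0.371. The difference of -1.43 (SE 0.32) did not pass (limma adjusted p = 0.188) but did without control array 2 (-1.64, limma adjusted p = 0.0472) and with array weights (-1.60, limma adjusted p = 0.00912). Without Pdx-1+/- array 4 and control array 3 the Slc2a2 difference was -1.27 (limma adjusted p = 1.0), and over all settings its adjusted p ran from 0.00912 to 1.0. G6pc2, the islet form of glucose-6-phosphatase, read 11.75, 11.40, 12.15, 11.78 and 11.80 against 11.25, 11.05, 11.06 and 10.59 (difference -0.79, SE 0.20, limma adjusted p = 0.308). Ppp1r1a, a protein phosphatase inhibitor, read 8.82 to 9.95 against 7.92 to 8.60 (difference -1.10, SE 0.25, limma adjusted p = 0.181). Neither overlapped between groups. Of 28 measured genes 0 passed in limma (5 lower and 0 higher at an unadjusted p under 0.05; Slc2a2 and Ppp1r1a with array weights), 16 were below 0 and the median was -0.097, or -0.0090 without control array 3 and -0.050 without that array and Pdx-1+/- array 4.

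Receptors gave the list with the most separate arrays, 6 of 34 genes where 1.4% of all genes were separate and lower, although 0 passed in limma (9 lower and 0 higher at an unadjusted p under 0.05; Gcgr, Gpr158 and Adgrl3 with array weights). They were the incretin receptors Glp1r (11.64 to 12.49 in controls, 11.33 to 11.64 in Pdx-1+/- islets, with the closest pair equal to 2 decimals; difference -0.61, SE 0.22) and Gipr (difference -0.62, SE 0.24), the glucagon receptor Gcgr, the galanin receptor Galr1 (difference -0.65, SE 0.32), and Gpr158 and Adgrl3. Gcgr read 7.42, 7.08, 7.59, 7.71 and 7.19 in controls and 6.93, 6.61, 6.63 and 6.45 in Pdx-1+/- islets. It differed by -0.74 (SE 0.15, limma adjusted p = 0.104). Gpr158 differed by -1.14 (SE 0.27, limma adjusted p = 0.242). The closest pair of Adgrl3 arrays, a control and a Pdx-1+/- array, both read 6.72 to 2 decimals, and Adgrl3 differed by -1.21 (SE 0.27, limma adjusted p = 0.171). The list's median was -0.12, or -0.064 without Pdx-1+/- array 4 and control array 3.

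The main hormones of β-, α- and PP-cells overlapped between the groups. Ins2 read 12.66, 12.60, 12.61, 12.68 and 12.66 in controls and 12.62, 12.64, 12.62 and 12.60 in Pdx-1+/- islets, with a difference of -0.02 (SE 0.07). Iapp, the amylin that β-cells secrete with insulin, differed by -0.08 (SE 0.11), Gcg by -0.13 (SE 0.09) and Ppy, pancreatic polypeptide, by -0.13 (SE 0.21), all with overlapping arrays. Somatostatin, Sst, made by δ-cells, read 12.48, 12.06, 12.77, 12.78 and 12.78 against 11.93, 12.35, 12.09 and 12.13 (difference -0.45, SE 0.16, limma adjusted p = 0.822). Ghrl, ghrelin, read 6.16 to 6.56 and 6.55 to 7.10 (difference 0.41, SE 0.14, limma adjusted p = 0.796). Ucn3, urocortin 3, a marker of mature β-cells, read 9.61 to 10.80 and 8.46 to 9.76, with a difference of -1.24 but a large error (SE 0.51). That error also takes in the diabetic IKK2-CA arrays, on which Ucn3 ranged more widely, from 6.82 to 9.68. It is therefore not the scatter of the compared groups alone. Of 29 measured genes of prohormone processing and granule contents 0 passed in limma (6 lower and 0 higher at an unadjusted p under 0.05; Rbp4 with array weights) and 25 were below 0, with a median of -0.13, or -0.022 without Pdx-1+/- array 4 and control array 3. Ikbkb, which encodes IKK2, differed by -0.02 (SE 0.11).

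**Figure D3:**
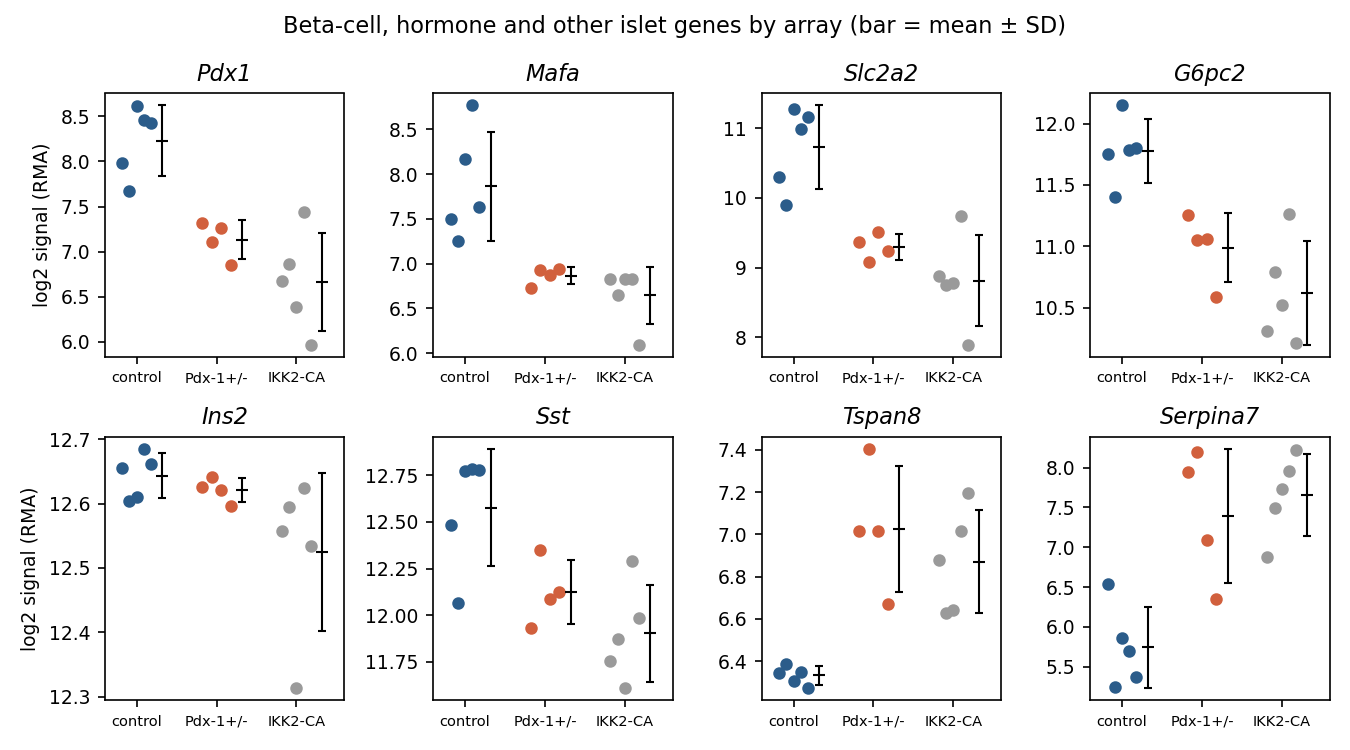
Points give the log2 signal (y axis) of 8 genes on each array of the 3 groups, and bars the mean ± SD (n = 5, 4 and 5). Pdx1, Mafa, Slc2a2 and G6pc2 are separate between control and Pdx-1+/- arrays without passing the test, Ins2 and Sst overlap, and Tspan8 and Serpina7 lean higher.

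No gene rose, and the nearest was Tspan8, a tetraspanin of duct and other epithelia. It read 6.34, 6.39, 6.31, 6.35 and 6.27 in controls and 7.01, 7.40, 7.02 and 6.67 in Pdx-1+/- islets. The controls were nearly equal (SD 0.04, n = 5) and every Pdx-1+/- array stood above them. The difference was 0.69 (SE 0.14, limma adjusted p = 0.0957), and 0.81 with an adjusted p of 0.0371 in limma without Pdx-1+/- array 4, the lowest of its group. Without that array and control array 3 Tspan8 differed by 0.81 and did not pass (limma adjusted p = 0.115), and over all settings its adjusted p ran from 0.00376 to 0.35. Serpina7, thyroxine-binding globulin, read 6.54, 5.24, 5.87, 5.69 and 5.37 in controls and 7.94, 8.19, 7.09 and 6.35 in Pdx-1+/- islets. It had the largest positive difference of all genes, 1.65 (SE 0.37, limma adjusted p = 0.172), with Pdx-1+/- array 4 inside the control range. Serpina7 passed without that array (2.00, limma adjusted p = 0.0482) and with array weights, but not without that array and control array 3 (2.03, limma adjusted p = 0.115). Ambp, a plasma protein precursor also listed as a ductal marker, read 6.75 to 7.78 and 7.89 to 8.21 (difference 0.86, SE 0.21, limma adjusted p = 0.287).

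Ductal markers leaned higher, with 16 of 22 above 0, a median of 0.20 (0.157 without Pdx-1+/- array 4 and control array 3) and 0 passing in limma (0 lower and 4 higher at an unadjusted p under 0.05; Tspan8 with array weights). Their scores ran from -0.2193 to 0.0278 in controls and from 0.0307 to 0.2015 in Pdx-1+/- islets. The closest scores, of control array 2 and Pdx-1+/- array 2, were thus almost equal. Tspan8 and Ambp are members of this list and enter its scores. The defining markers were mixed: Sox9 differed by 0.32 (SE 0.17) and Krt19 by -0.12 (SE 0.23). Endocrine progenitor and dedifferentiation genes had 22 of 28 members above 0 and a median of 0.14, or 0.030 without Pdx-1+/- array 4 and control array 3. Among them Neurog3, the trigger of endocrine fate in the embryo, differed by 0.40 (SE 0.19) and Aldh1a3, an enzyme raised in failing β-cells, by 0.38 (SE 0.20), with overlapping arrays and 0 members passing in limma (1 lower and 4 higher at an unadjusted p under 0.05; Serpina7 with array weights). Serpina7 belongs to that list too. The scores of that list, Serpina7 included, ran from -0.2131 to -0.0789 in controls and from 0.0012 to 0.1653 in Pdx-1+/- islets. The part of duct cells in the higher values of Tspan8 and Ambp was not tested.

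**Figure D4:**
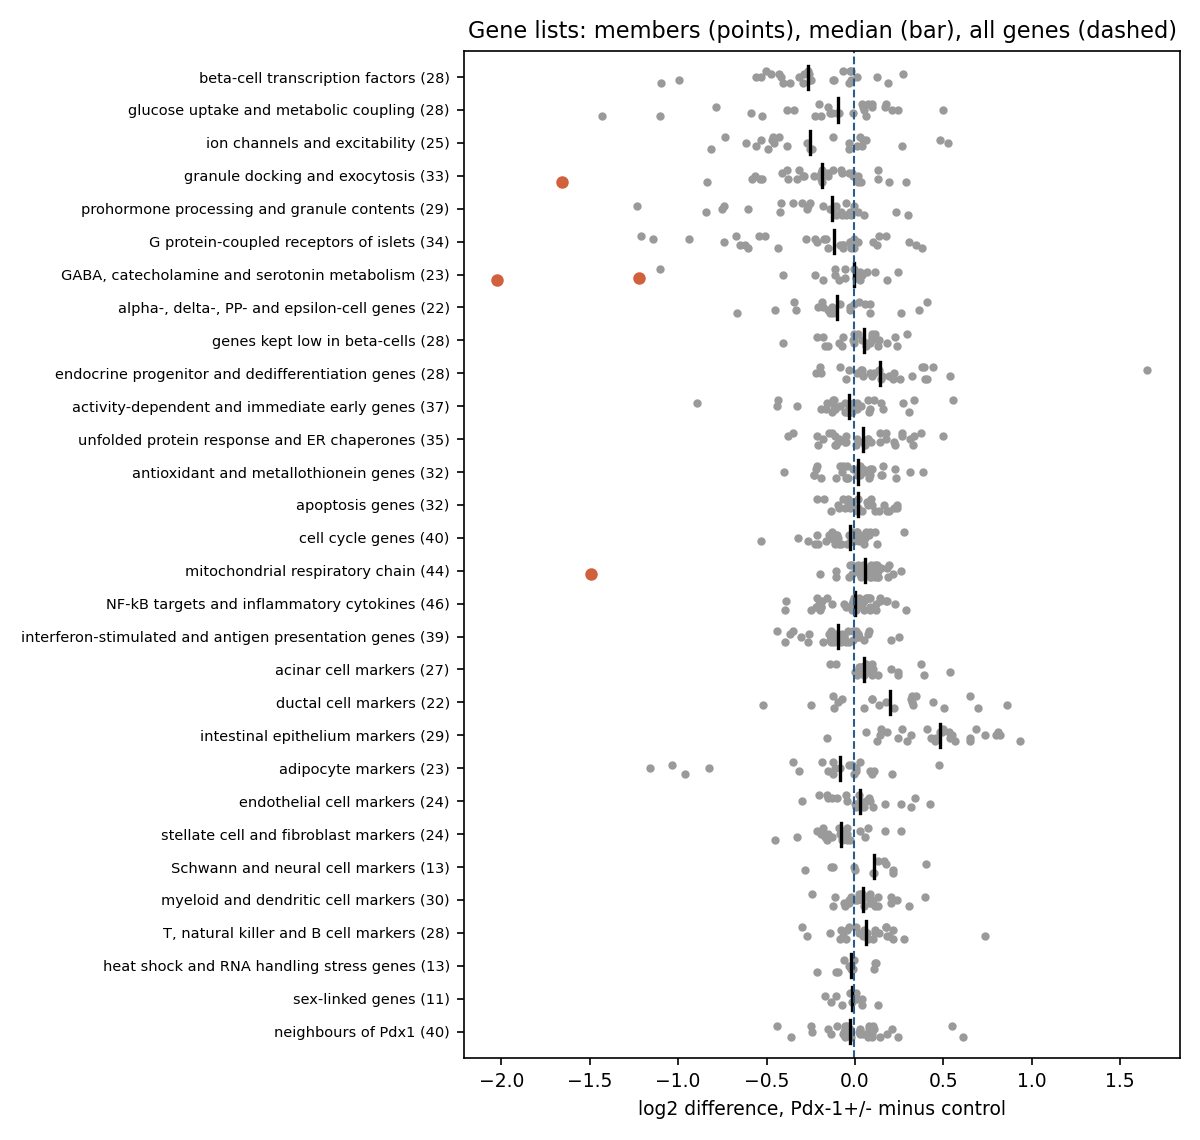
Each point is the log2 difference (x axis, Pdx-1+/- minus control) of 1 gene in a list, with the number of measured genes in brackets, black bars the list medians and the dashed line the median of all genes. Orange points mark Sytl4, Gad1, Th and Cox6a2, the list members that fell, and medians run from -0.26 for β-cell transcription factors to 0.48 for intestinal markers.

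Stress, death and immune genes showed medians near 0. They were 0.047 for 35 genes of the unfolded protein response, 0.018 for 32 antioxidant genes, 0.015 for 32 apoptosis genes, -0.030 for 40 cell cycle genes and 0.0005 for 46 NF-κB target genes. Interferon-stimulated and antigen presentation genes had a median of -0.094 over 39 genes. Without Pdx-1+/- array 4 and control array 3 these medians ran from -0.078 to 0.060, and those of the unfolded protein response, antioxidant and NF-κB lists were below 0. In these 6 lists 0 genes passed in limma, with 7 lower and 3 higher at an unadjusted p under 0.05. Ccnd2, the D cyclin on which β-cell division depends, was one of the few with separate arrays, at 10.99 to 11.67 in controls and 10.69 to 10.83 in Pdx-1+/- islets (difference -0.53, SE 0.15, limma adjusted p = 0.53). Genes normally kept low in β-cells had a median of 0.050, with 16 of 28 above 0.

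Markers of other cells were followed because they move with some results. Intestinal markers had 28 of 29 genes above 0 and a median of 0.48, which was -0.17 without Pdx-1+/- array 4 and 0.03 without that array and control array 3. Scores were 2.24 on that array, 0.85 on control array 3 and -0.42 to -0.11 on the others. Acinar scores ran from -0.17 to 0.11 in controls and -0.14 to 0.23 in Pdx-1+/- islets, adipocyte scores from -0.32 to 0.25 and -0.40 to 0.09, and myeloid scores from -0.54 to -0.04 and -0.33 to -0.06. None of these ranges separates the groups. IKK2-CA array 5, which entered the estimate of the spread, had an adipocyte score of 1.79. Without that array 20 genes fell, and limma adjusted p was 0.101 for Pdx1 and 0.0881 for Slc2a2. As stated above, 9 of the 19 genes that fell passed also without the 2 arrays with intestinal signal.

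**Figure D5:**
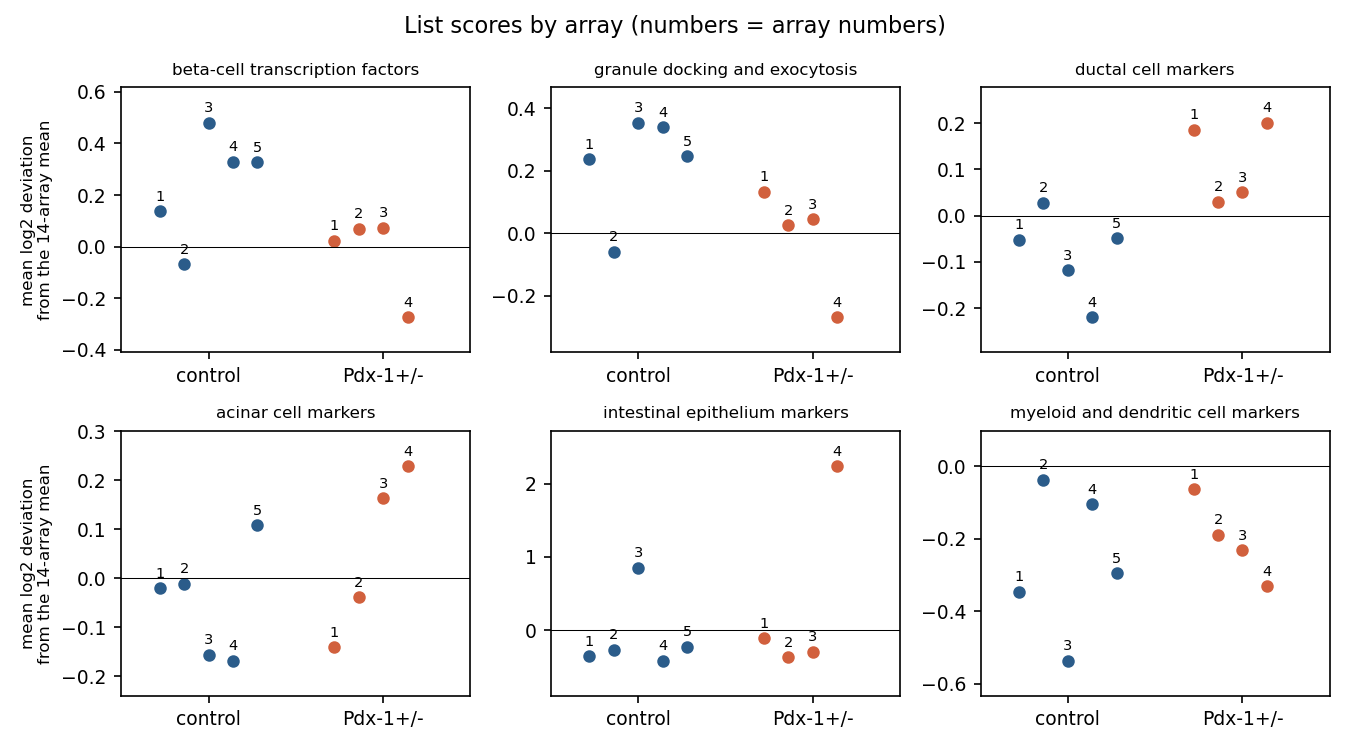
List scores (y axis, mean log2 deviation of a list's genes from their mean over 14 arrays) are plotted for the 5 control and 4 Pdx-1+/- arrays, numbered by array. Pdx-1+/- array 4 lies at 2.24 for intestinal markers and at -0.27 for β-cell transcription factors, and control array 3 at 0.85 for intestinal markers.

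The diabetic IKK2-CA islets carry the same driver allele and are set against the same control arrays, so their values are given only side by side. Gad1 read 6.96, 6.75, 6.52, 6.76 and 6.14 on IKK2-CA arrays 1 to 5, against 6.64 to 7.17 in Pdx-1+/- islets and 8.34 to 9.32 in controls. Sytl4 read 7.04, 7.21, 6.71, 7.73 and 6.80, where Pdx-1+/- islets had 7.06 to 7.71. For Pdx1 the 5 values were 6.68, 6.86, 6.39, 7.44 and 5.97, reaching below the Pdx-1+/- range of 6.85 to 7.32. Tspan8 read 6.88, 6.63, 6.64, 7.01 and 7.19 there, above the 6.27 to 6.39 of controls.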

How the data were processed

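Islet RNA was hybridised to Mouse Gene 1.0 ST arrays (Affymetrix), per the series' design text. The deposited log2 signals are RMA values per transcript cluster from Affymetrix Expression Console, per the submitters' processing notes and the series' design text; no version is named, and the log base was read from the range of the values. RMA normalises all arrays together. Precision is limited by how few arrays there are.

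Of 35556 clusters, 21789 with 1 symbol were kept, 1621 with several symbols and 12146 not listed in the gene table were left out, and the cluster with the highest mean stood for the 999 genes with several. This left 19938 genes. One limma 3.58.1 model (R 4.3.3; lmFit, then eBayes) held the means of 3 groups of the 14 arrays, with degrees of freedom of 11 (residual) and 3.46 (prior), and p-values were adjusted over all genes (Benjamini-Hochberg). The procedure was tested on simulated data. SE is the moderated standard error, and 0.05 was the threshold.

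Members, the 29 gene lists and the naming rule were chosen with earlier results of these data known. The rule names the islet genes given with values, up to 15 falls and 15 rises that passed without overlap, members of a list that passed, and up to 4 others per list by unadjusted p. Further genes were named for a known role after their values were seen: Gad2, Ddc, Kcnj11, Abcc8, Neurod1, Pax6, Nkx2-2, Ucn3, Cox6a1, Glp1r, Gipr, Galr1, Krt19, Sox9, Neurog3, Aldh1a3 and the marker genes of the label check. Replicate numbers recur between groups, and the labels do not say whether they pair arrays. Correlations of same-number deviations between control and Pdx-1+/- arrays were 0.36, 0.09, -0.05 and -0.39. They are too few to decide this, and the main model used no pairing. Alternatives changed the normalization, variance prior, filter, gene summary, array weights, block and arrays used. Promoter sequences are from RefSeq (GRCm38.p6).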

Additional observations from a re-analysis of the deposited data

Results flagged for a closer look

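With Dixon's test at the 5% level, 168 groups of arrays were tested and 15 had an array far from the others, where about 1 in 20 is expected by chance. Pdx-1+/- array 4 was the array for Syt13 (9.43), Pcsk1 (9.26), Wfs1 (8.37), Cdk4 (10.17), Ubl3 (9.40) and Prdx2 (8.50), each below the other 3 arrays, for Kcnf1 (4.79), above them, and for the scores of β-cell transcription factors (-0.27) and intestinal markers (2.24). Pdx-1+/- array 3 stood high for Tmem215 (6.44) and Th (6.65), and array 1 low for Cox6a2 (6.45). Among controls, array 2 stood low for Carmil3 (7.26), and array 3 high for Ica1l (8.28) and for the score of intestinal markers (0.85).

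Outside the gene tests, 5 further transcript clusters passed when every cluster was tested with limma, all of them lower. They are second clusters of Tmem229b (-1.09), Dlgap1 (-0.82) and Ttc28 (-0.93), and 2 clusters with no gene name here (-1.25 and -1.76).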

How the results depend on the processing

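The count of genes that fell was 19 and ranged from 9 (without Pdx-1+/- array 2) to 48 (without control array 2) when 1 array was left out, and the count that rose from 0 to 2 (Tspan8 and Serpina7, without Pdx-1+/- array 4). Array weights gave 66 lower and 7 higher genes and a Pdx1 difference of -1.13. Median centring and quantile normalization each gave 1 higher gene, Tspan8. Without Pdx-1+/- array 4 and control array 3 there were 9 lower genes; without IKK2-CA array 5 as well, a setting chosen after seeing the data, 10 lower and 1 higher. With the replicate number as a block (replicate block) 9 genes fell. Whether same-number arrays share more than a number is not stated. The other settings gave 14 to 22 lower genes. The 14 came from the fit of only the 9 arrays compared, without the IKK2-CA arrays in the spread. Of these 14 genes, 13 were among the 19, whose limma adjusted p there reached 0.187. Causes were not tested.

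Differences close to 0 changed sign. Ins2 was 0.000629 with median centring. Ppy was 0.0033 with array weights and 0.12 without Pdx-1+/- array 4 and control array 3 (0.12 also without IKK2-CA array 5), and -0.24 to 0.0822 with 1 array left out. Iapp was 0.0238 without those arrays (0.0238 also without IKK2-CA array 5) and -0.14 to 0.0083 with 1 left out. Ikbkb was 0.0189 with array weights, 0.0196 with quantile normalization, 0.0232 with the block, 0.0163 without those arrays, and -0.0950 to 0.0508 with 1 left out. Over 78 named genes and 21 settings, 1511 differences kept their direction and their side of the threshold, 84 lost it, 25 gained it and 14 changed sign. Shifts of list medians were set against the SD of the list's scores over the 5 control arrays. By this measure 597 moved by less and 33 by at least as much. Few arrays and a signal near background or ceiling limit all results.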
